A study of Mus musculus with 26 samples.

Results

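The 4 loci described here lie around Col11a1, Mllt6, A430005L14Rik and Grm4 in the mouse genome. Each carries a region of open chromatin that formative stem (FS) cells and epiblast stem cells (EpiSCs) in AFX medium did not share among their strongest peaks. The loci were selected on the measured values of exactly those libraries, so the difference between FS and EpiSC_AFX at these regions is a description and no test is given for it. A locus is the gene span plus 120 kb on each side in GRCm38, and every peak of any library that touched it was taken. Merging overlapping peaks of the 26 lists gave 79 regions in the 4 loci, of 75600 regions in the whole series. The Mllt6 locus held 33 of them, the Grm4 locus 26, the A430005L14Rik locus 16 and the Col11a1 locus 4.

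The assay was ATAC-seq, a map of open chromatin: the enzyme Tn5 cuts and tags DNA that is not packed away, here in 50000 cells a library. Cells of 6 cultures, with 3 libraries each, made a first set. FS cells had been kept in A3XR medium, to passage 21 in FS1 and passage 29 in FS2. AF medium was used for EpiSC_AF (passage 22), and AFX medium for EpiSC_AFX1 (passage 14) and EpiSC_AFX2 (passage 16). Embryonic stem (ES) cells had been kept in 2iL to passage 16. A second set of 8 libraries, whose sources are labelled Rd2, held ES cells in 2iL at passage 33 (Rd2_ES, 2 libraries), epiblast-like cells made from ES cells in 2 days in AF with KSR and sorted for low GFP (Rd2_EpiLC, 4 libraries), and EpiSCs in AFX at passage 16 (Rd2_AFX, 2 libraries). Titles of the second set carry WT, and the labels name no gene alteration for the first. Each type of the first set rests on 1 culture or a pair of cultures, and nothing in the labels says whether libraries of a culture were grown apart.

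As background, naive ES cells, formative cells and primed EpiSCs represent successive stages of pluripotency on the way from the early to the late epiblast. Peaks at a gene's start mark its promoter, and peaks far from any start are often enhancers. Col11a1 encodes a chain of type XI collagen, a fibril-forming collagen known from cartilage, and Grm4 a metabotropic glutamate receptor of nerve terminals. Mllt6, also called Af17, encodes a nuclear protein found fused to KMT2A in leukaemia. A430005L14Rik is a protein-coding gene still named after a cDNA clone.

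The deposited peak lists held up to 31263 peaks in the first set and between 471 and 26045 in the second. The shortest of the first set was that of ES library 2. No read counts were used, so depth is unknown. Presence was therefore read in 2 ways: in the full lists, and at equal length, where each first-set list was reduced to as many peaks as that shortest list has, those with the highest −log10 p. A rank of 1 is the highest −log10 p of a list, and a percentile rank is the percent of a list's peaks that lie below the peak. Of 18774 merged regions of the FS and EpiSC_AFX lists at equal length, 24 (0.128%) were held by all 6 FS and no EpiSC_AFX library, and 10 (0.0533%) by all 6 EpiSC_AFX and no FS library. Those 34 parting regions include 1 region in each of the 4 loci. The balance depended on the lists: as deposited, FS held 15 and EpiSC_AFX 45 regions alone, and with peaks limited to a −log10 q of 5 or more, 3 and 8. Marker lists bore on the cell labels only in part. Of 8 naive genes, ES full lists had a peak at an end of 3 to 4, FS1 lists of 4, FS2 lists of 2 to 3 and EpiSC_AFX lists of 4 to 5. Zfp42 was in 3 of 3 ES and in no FS or EpiSC_AFX list, while Tfcp2l1, Esrrb, Nr0b1 and Dppa3 were in 0 of 3 ES lists. At equal length Tbx3 too was in 3 of 3 ES and in no FS or EpiSC_AFX list. Klf5 was then in all of these lists, and Tfcp2l1 in 4 of 6 FS, 6 of 6 EpiSC_AFX and 0 of 3 ES lists. Of 6 formative genes, ES lists had 1 to 2, FS lists 3 to 6 and EpiSC_AFX lists 5. Of 6 primed genes, EpiSC_AFX1 lists had 4 to 6, EpiSC_AFX2 lists 3 to 5 and EpiSC_AF lists 3 to 5. FS1 lists had 4 to 5 of them, FS2 lists 1 to 2 and ES lists 0 to 1, so in full lists the primed genes did not part FS1 from EpiSC_AFX. Full lists differ in length, and the part of length in these marker counts was not tested. At equal length Eomes was in 2 of 6 FS and 4 of 6 EpiSC_AFX lists, and Fgf8 in 0 and 2. Foxa2 was in 1 and 0, Lhx1 in 1 and 1, and T and Sox17 in none of them. Markers of other cell types were not at 0 in full lists. Of 7 such genes, Pax6, Sox1 and Col1a1 among them, FS1 libraries had a peak at a gene end for 5 to 6, FS2 for 1 to 2, EpiSC_AFX1 and EpiSC_AFX2 for 4 to 6 and ES for 0 to 1. At equal length Pax6, Sox1, Col1a1, Gata6 and Sox7 had none in any first-set list. Neurod1 then had one in 1 of 6 FS and 3 of 6 EpiSC_AFX lists, and Thy1 in 3 of 6 and 5 of 6. The part of these markers in the results was not tested.

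The Col11a1 promoter is shown because the Col11a1 parting region lies on it, and the A430005L14Rik promoter because it shows a start with a peak in 5 of 6 FS and 6 of 6 EpiSC_AFX full lists, and in 4 of 6 and 6 of 6 at equal length. Both come from RefSeq GRCm38.p6, on the plus strand, and stop before the annotated gene span. The Col11a1 stretch is chr3:114030290-114030478 and the A430005L14Rik stretch chr4:153956987-153957236. Capitals mark GGGCGG or its complement CCGCCC, the core letters of KLF and SP sites.
Col11a1: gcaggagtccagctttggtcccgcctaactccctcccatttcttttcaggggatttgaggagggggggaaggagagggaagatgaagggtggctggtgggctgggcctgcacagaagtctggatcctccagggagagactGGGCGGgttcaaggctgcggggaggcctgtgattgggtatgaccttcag
A430005L14Rik: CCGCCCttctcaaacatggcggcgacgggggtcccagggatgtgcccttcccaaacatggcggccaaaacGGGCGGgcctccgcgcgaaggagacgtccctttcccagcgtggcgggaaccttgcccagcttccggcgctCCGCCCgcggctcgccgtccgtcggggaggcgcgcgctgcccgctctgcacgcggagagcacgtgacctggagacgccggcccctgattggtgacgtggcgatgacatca

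The Col11a1 stretch of 189 bases has a GC content of 60.3% and 3 CpG dinucleotides, where the median promoter cut to this length has 4. It has 1 GGGCGG match, and 22.6% of 27025 RefSeq promoters cut to that length have at least 1. The A430005L14Rik stretch of 250 bases has a GC content of 70.8% and 33 CpG, against a median of 6. It holds 3 GGGCGG matches, where 32.9% of promoters hold any, and 1 E-box match, CACGTG, which 6.05% hold. None of the other motif letters searched on both strands occurs in either stretch: octamer ATTTGCAT, SOX ACAATG, OTX GGATTA, TEAD GGAATG, AP-1 TGANTCA, ZIC CAGCAGG and TCF/LEF CTTTGAT. The E-box letters are also missing from the Col11a1 stretch. For Mllt6 the whole stretch before the RefSeq start lies inside the gene span, and nothing is printed. For Col11a1, only the bases before the span are printed. Sequence of Grm4 and of the distal regions was not analysed here.

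The Col11a1 region was the one with no FS peak at any list length. It runs over chr3:114030117-114030657 and contains the RefSeq start of Col11a1 at 114030540. FS1 and FS2 had a peak there in 0 of 6 full lists, and no peak anywhere in the 430.278 kb Col11a1 window, which holds no other protein-coding gene. EpiSC_AFX1 libraries had the peak at ranks 1660, 1539 and 976, and EpiSC_AFX2 libraries at ranks 651, 409 and 634. All 6 were thus kept at equal length. Their percentile ranks were 90.6 to 98.6 in the full lists and 79.4 to 94.9 at equal length. FS2 lists, at 11796 to 14147 peaks, were shorter than every EpiSC_AFX list, and FS1 lists, at 23883 to 31263 peaks, were within or above the EpiSC_AFX range of 17701 to 29575.

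Libraries that took no part in the choice also had a Col11a1 peak. EpiSC_AF libraries had it at ranks 994, 1660 and 1350, so at percentile ranks of 92.3 to 94.6 in 3 of 3. Of all 18774 regions, 28.5% were held by all 3 EpiSC_AF libraries at equal length and 45.2% by none. ES libraries had it at ranks 1891, 4470 and 851, which made 3 of 3, and 17% of the 18774 regions were held by all 3 ES libraries while 56.1% were held by none. Rd2_EpiLC libraries 1.1, 1.2, 2.1 and 2.2 had it at percentile ranks of 45.3, 97.1, 54.0 and 98.6. All 4 Rd2_EpiLC full lists held 27.2% of the 18774 regions, and 23.3% were in none of them. Rd2_AFX had it in 2 of 2, at ranks 503 and 276, and Rd2_ES in 1 of 2, those lists holding only 471 and 2576 peaks. FS was therefore the only first-set cell type without the promoter peak, and EpiLC had it.

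Peaks at Col11a1 varied in width. They were 120 to 528 bp wide with a median of 292 bp over 19 lists. The 85 bases from 114030412 to 114030496 were in every one of them. EpiSC_AFX2 peaks were 377, 528 and 349 bp wide, EpiSC_AFX1 peaks 318, 371 and 344 bp, and ES peaks 292, 195 and 194 bp. The widths of ES and EpiSC_AFX did not overlap, in lists that were also shorter for ES. The share of all regions with such a gap was not counted.

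**Figure D1:**
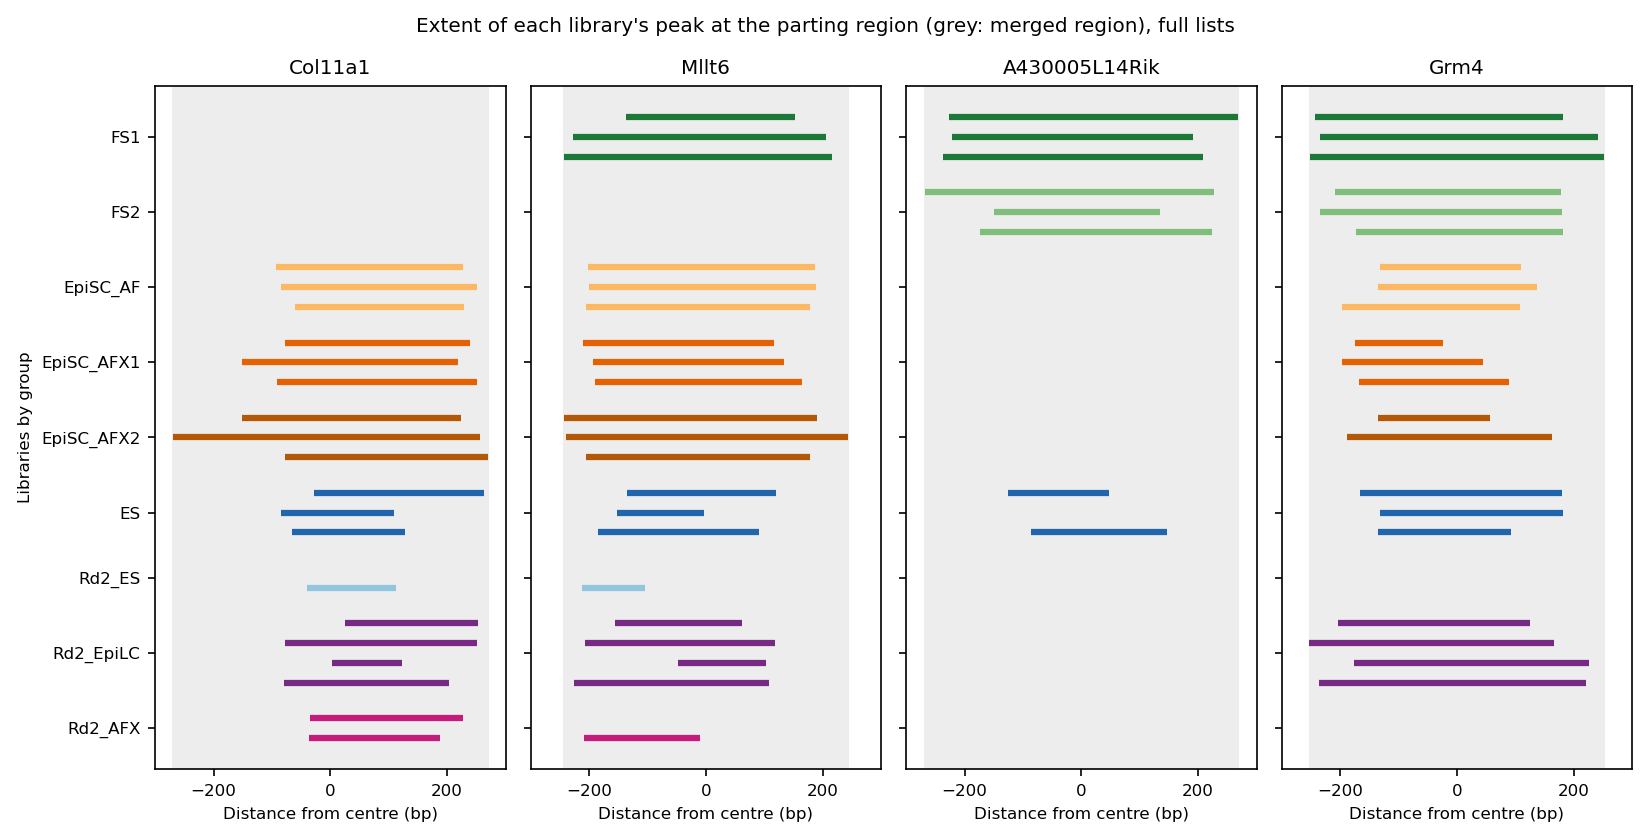
Horizontal bars give the extent of each library's peak at the 4 parting regions in the full lists, in bp from the centre of the merged region (grey), with libraries ordered by group on the vertical axis. Rows without a bar have no peak, among them all 6 FS rows at Col11a1, the 3 FS2 rows at Mllt6 and 18 of 26 rows at A430005L14Rik.

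The Mllt6 region parted the types at equal length, but not in every full list. It runs over chr11:97661703-97662190, 0.932 kb outside the Mllt6 span and 1.222 kb from the RefSeq start on the plus strand, and overlaps no annotated gene. At equal length it was in 0 of 6 FS and in all 12 other first-set libraries. In the full lists all 3 FS1 libraries had a peak, at ranks 13761, 13639 and 24132, while FS2 had none in 3 libraries with lists of 11796 to 14147 peaks.

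EpiSC_AFX1 had the Mllt6 peak at ranks 3140, 3963 and 4885, and EpiSC_AFX2 at ranks 1537, 1995 and 1601. The 2 EpiSC_AFX cultures did not overlap, with percentile ranks of 81.5 to 82.3 in the first and 93.3 to 94.0 in the second. At Col11a1 they did not overlap either, at 90.6 to 96.5 and 97.5 to 98.6. The lists differ in length, and the share of all regions with such a gap was not counted. EpiSC_AF had ranks of 1339, 2827 and 4622 and ES had 4168, 4911 and 3464, so that both held it in 3 of 3. In the second set Rd2_EpiLC had it in 4 of 4, at percentile ranks of 76.0, 93.3, 43.0 and 84.9. Rd2_AFX had it in 1 of 2, at rank 9151 of 10719, near the end of that list, and Rd2_ES in 1 of 2. EpiSC_AFX2 and Rd2_AFX share medium and passage 16, and the peak stood high in the first and low or absent in the second. The sets were not processed alike: the shortest peak was 150 bp in first-set lists and 110 bp in Rd2 lists. Peaks here were 110 to 485 bp wide over 21 lists and no base was common to all.

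The A430005L14Rik region was held by FS and was absent from every EpiSC list, full or reduced. It runs over chr4:153868968-153869503, outside any annotated gene and 87.734 kb from A430005L14Rik, the nearest protein-coding gene. The nearest annotated gene of any kind is the small nucleolar RNA gene Gm25880, at 6.881 kb. FS1 libraries had the peak at ranks 279, 493 and 895 and FS2 libraries at ranks 616, 470 and 368, all at percentile ranks of 95.7 to 98.9. EpiSC_AF, EpiSC_AFX1, EpiSC_AFX2, Rd2_AFX and Rd2_EpiLC had none, 0 of 15 libraries in all. ES had it in 2 of 3, at rank 2178 in library 1 and rank 417 in library 3, with no peak in library 2, whose list is the shortest. The peak was 406.5 bp wide at the median and 133 bases were common to the 8 lists that had it.

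EpiLC libraries therefore lacked the A430005L14Rik region that FS held. Of the 24 FS-held parting regions, 8 were in no EpiLC full list and 5 in all 4, beside 23.3% and 27.2% of all 18774 regions. A region beside it, at chr4:153862211-153862658, was in 4 of 4 Rd2_EpiLC lists, in 1 of 3 FS1, 1 of 3 FS2 and 1 of 3 EpiSC_AF lists and in no other. The start of A430005L14Rik itself, at chr4:153956721-153957587 with the promoter printed above, had a peak in 23 of 26 full lists: 5 of 6 FS, 6 of 6 EpiSC_AFX, 3 of 3 EpiSC_AF, 3 of 3 ES, 4 of 4 Rd2_EpiLC and 2 of 2 Rd2_AFX. The gene's own start thus did not meet the definition of a parting region.

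The Grm4 region stood near the top of every FS list and low in the EpiSC_AFX lists. It runs over chr17:27324975-27325479, 96.908 kb from the Grm4 span, and lies in the annotated lncRNA gene Gm10505. FS1 libraries had the peak at ranks 537, 315 and 356 and FS2 libraries at ranks 363, 919 and 351, at percentile ranks of 92.2 to 98.9. EpiSC_AFX1 libraries had it at ranks 10278, 14776 and 15227. EpiSC_AFX2 libraries 1 and 2 had it at ranks 22329 and 20818, and library 3 had none. With 5 of 6 full EpiSC_AFX lists holding the peak, the types differed here in its place in the list more than in its presence.

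EpiSC_AF had the Grm4 peak at ranks 11892, 5393 and 4523, the first within the EpiSC_AFX range, so that 2 of 3 were kept at equal length. ES had it in 3 of 3, at ranks 4284, 4443 and 5898. Rd2_EpiLC had it in 4 of 4 at ranks 1608, 911, 1147 and 1293, and Rd2_AFX in 0 of 2, with lists of 11252 and 10719 peaks. Of the 18774 regions, 1.46% were in all 4 Rd2_EpiLC and no Rd2_AFX full list and 0.485% in both Rd2_AFX and no Rd2_EpiLC list. Of the 24 FS-held parting regions 3 had the first pattern, the Grm4 region among them, and none the second, and of the 10 EpiSC_AFX-held regions none had either. Grm4 was the only one of the 4 regions at which EpiLC and Rd2_AFX were split in this way, and no p-value is given because 4 against 2 libraries cannot go below 0.067 in an exact permutation test. The labels number the EpiLC libraries in 2 parts (1.1, 1.2, 2.1 and 2.2) and do not say whether all 4 are independent.

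Peak widths at Grm4 also differed. FS1 peaks were 425, 478 and 505 bp wide and FS2 peaks 389, 415 and 355 bp. EpiSC_AFX peaks were between 152 and 352 bp, all narrower than every FS peak, though 352 bp is close to the 355 bp of the narrowest FS peak. The region was chosen in these same libraries, and the share of all regions with such a gap was not counted. ES peaks were 347, 313 and 228 bp wide, within the EpiSC_AFX range. Rd2_EpiLC peaks were 331, 420, 404 and 460 bp and EpiSC_AF peaks 242, 274 and 306 bp, within the EpiSC_AFX range. All 21 peaks shared 108 bases, from 27325096 to 27325203.

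**Figure D2:**
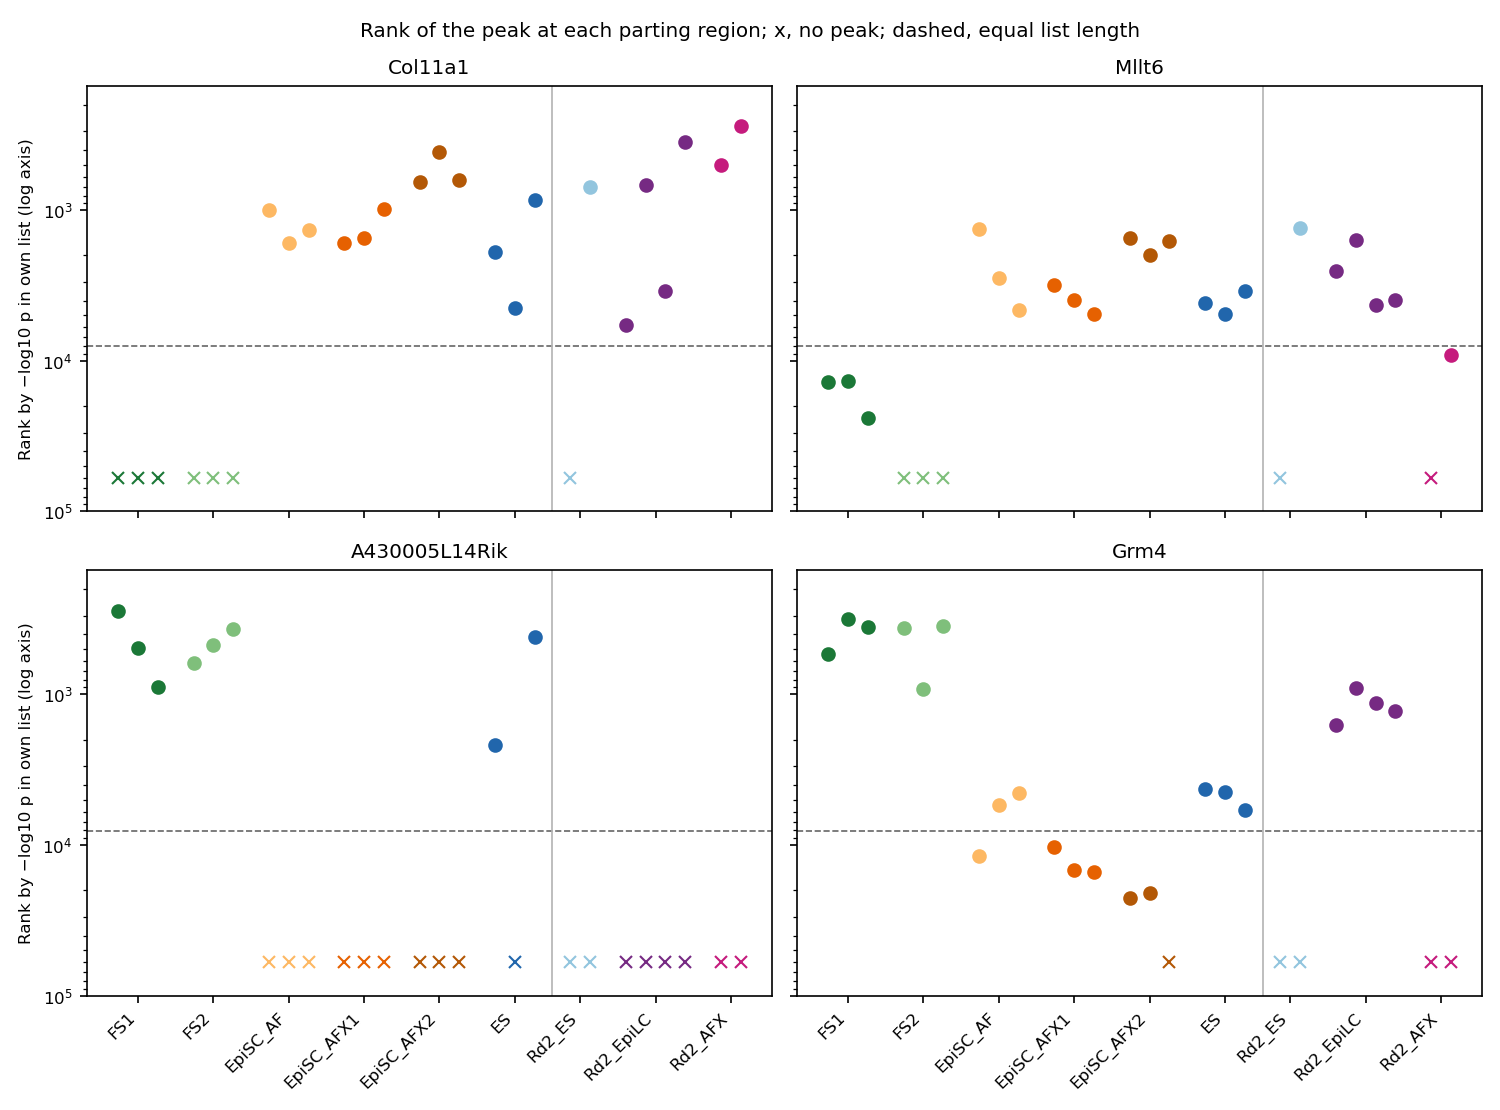
Each point is the rank, on a log axis with rank 1 toward the top, of a library's peak at the parting region of each locus within its own full list; crosses mark libraries with no peak, the dashed line the equal list length, and the grey line divides the first set from the second. FS points at Grm4 lie at ranks 315 to 919 and EpiSC_AFX points at 10278 to 22329, below the dashed line.

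The values just inside and outside the threshold were these. At Mllt6 the lowest-placed EpiSC_AFX peak inside had rank 4885 and the first FS peak outside rank 13639. At Grm4 the lowest-placed FS peak inside had rank 919 and the first EpiSC_AFX peak outside rank 10278. Over all regions, 122 missed the definition by 1 library, and none of these lay in the 4 loci.

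Presence over all 26 full lists was matched against every other region to find the most similar patterns, described by agreement in 26 libraries, whose lists differ in length, with no test. The Col11a1 pattern agreed in 24 with a region at chr12:35641858-35642892, 106.869 kb from Ahr, the dioxin receptor. It agreed in 23 with 3 regions, of which chr16:67619993-67621399 in Cadm2, a cell adhesion gene, stood highest in its lists. The Mllt6 pattern was matched in 25 by 5 regions, and that Cadm2 region and chr16:65814821-65815851 in Vgll3 stood highest. For A430005L14Rik, 12 regions agreed in 24. The 2 highest were chr4:152650231-152650507, 87.047 kb from Nphp4, and chr11:54355559-54355925 in Acsl6. Both are themselves among the 34 parting regions and were in 6 of 6 FS lists and in no other list. The Grm4 pattern agreed in 25 with 11 regions. The 2 that stood highest in their lists had a peak in every first-set and EpiLC list and in no Rd2_ES or Rd2_AFX list, and were chr1:102628132-102628397, 2137.53 kb from Cntnap5b, and chr8:20550017-20550463 in Gm40469.

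Around the parting regions, the windows differed in how much else was open. In the Col11a1 window the other 3 regions were in few lists. Those at 114031855-114032098 and 114142394-114142754, inside the gene span, were in 4 of 6 EpiSC_AFX, 0 of 6 FS and 0 of 3 ES full lists each. The one at 114278630-114278908, 57.874 kb beyond the gene, was in 3 of 3 ES, in 0 of 15 other first-set lists and in 1 of 4 Rd2_EpiLC lists. All 3 stood low in their lists, with median percentile ranks of 32.2, 41.1 and 14.7. Exons and introns could not be told apart, since the gene table gives whole spans.

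The Mllt6 window held 11 protein-coding genes, and 6 of its 33 regions were in any ES list. The region found most often, at chr11:97744608-97745434 in Pip4k2b, a lipid kinase gene, was in 23 of 26 full lists. A region at Epop, whose product binds Polycomb complex PRC2, at chr11:97629075-97629975 was in all 15 non-ES first-set lists and in 0 of 3 ES lists. A region at chr11:97685660-97686029 in Cisd3, 0.195 kb from the nearest gene end, was likewise in all 15 of those and in 0 of 3 ES lists. Another, at chr11:97575485-97575976, 0.239 kb from Srcin1, was in 6 of 6 EpiSC_AFX, 5 of 6 FS, 2 of 3 EpiSC_AF and 0 of 3 ES lists. The Mllt6 parting region, held by 3 of 3 ES lists, was the only one of 33 in that window with a peak in every ES list.

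In the A430005L14Rik window 3 regions were in every EpiSC_AFX and EpiSC_AF list and no ES list. They lay at chr4:154011422-154012313 in Lrrc47 and at chr4:154070914-154071280 and chr4:154081030-154082780 in Trp73, a relative of p53. FS1 had all 3 in 3 of 3 full lists, while FS2 had them in 1, 1 and 0 of 3. At equal length they were in 4, 10 and 4 of 18 first-set lists.

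The Grm4 window had 2 such regions. One inside the Grm4 span, at chr17:27501545-27502206, was in 6 of 6 EpiSC_AFX, 3 of 3 EpiSC_AF, 5 of 6 FS and 0 of 3 ES full lists, but in 1 of 18 at equal length. The other, at chr17:27564534-27565987 in AI413582, was in all 15 non-ES first-set lists and 0 of 3 ES lists, also at equal length. No region within 1 kb of a Grm4 gene end was in more than 1 of 26 lists, and that list was of EpiSC_AF.

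**Figure D3:**
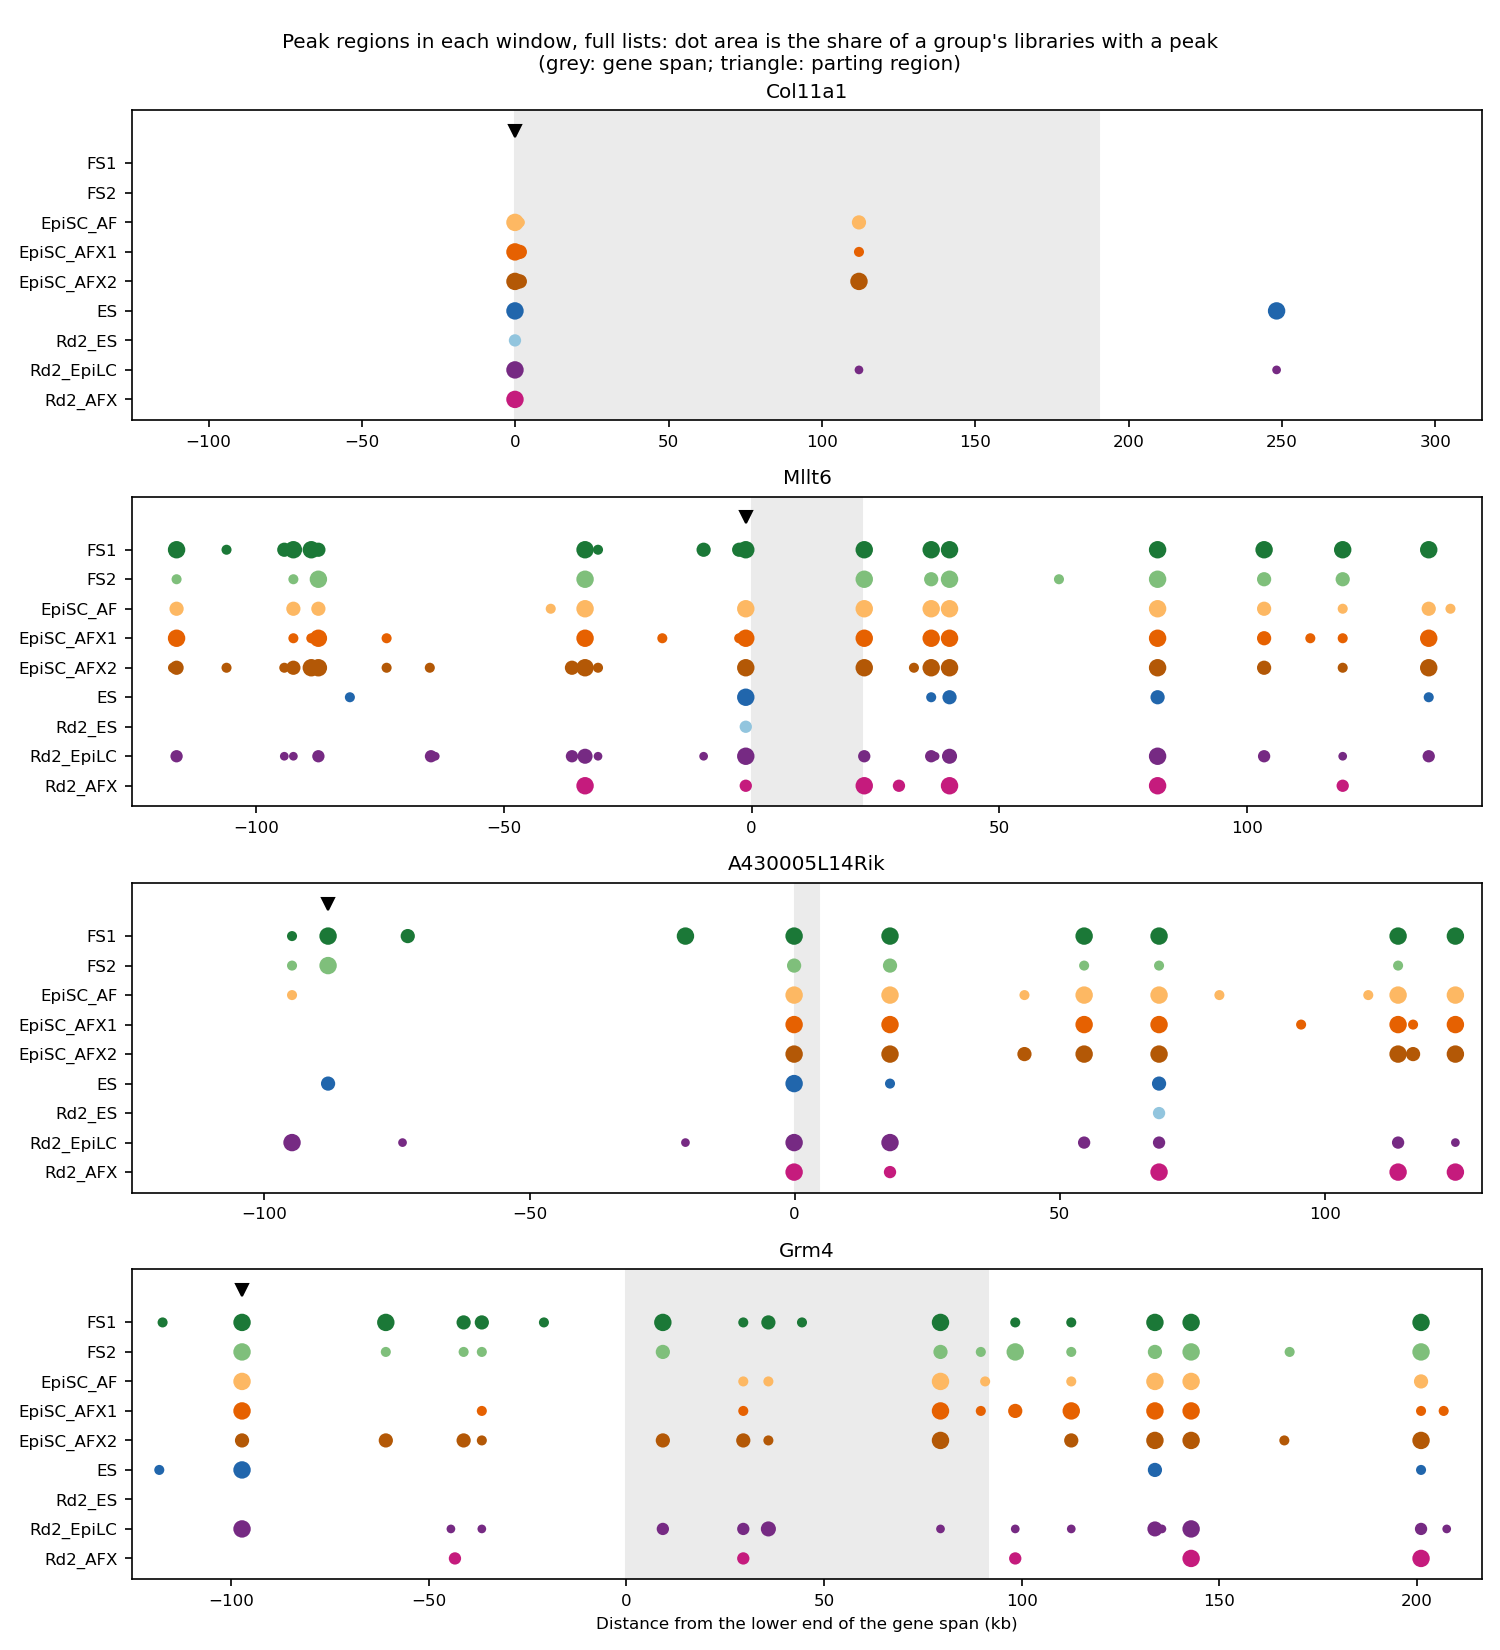
Each dot is a merged peak region, placed by its distance in kb from the lower end of the gene span (grey), with 1 row for each group and the dot area giving the share of that group's full lists with a peak; the triangle marks the parting region. The Col11a1 window has no dot in the FS1 and FS2 rows, and ES rows have 6, 4 and 4 regions in the Mllt6, A430005L14Rik and Grm4 windows.

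ES libraries were then set against the other 15 first-set libraries, a contrast that did not choose the loci, by the number of peaks in each gene's window at equal length. The parting regions were left out of the counts of the 4 loci. Over 19993 gene windows, 1523 (7.62%) had fewer and 632 (3.16%) more peaks in ES at an adjusted p under 0.05 in the exact permutation test, with a median difference of −0.2 peaks. At the level of single regions, 0.658% of 25068 first-set regions at equal length were held by all 15 others and by no ES library, the Epop and AI413582 regions among them, and 1.48% by all ES libraries only, none of them in the 4 loci.

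The Mllt6 window had fewer peaks in ES. Without the parting region, ES libraries had 2, 1 and 1 peaks, and the other 15 had between 3 and 7, with a median of 5 and no overlap. Leaving out that region widened the gap, since every ES and no FS library held it at equal length. With it counted, ES libraries had 2 to 3 peaks and the others 3 to 7, so the groups met at 3. The means were then 2.33 and 5.2, and these counts were not tested. Without the parting region, the means were 1.33 and 4.6 peaks and differed by −3.27 (exact permutation p = 0.00123, the smallest that 816 assignments can give, adjusted p = 0.0237). With 1 ES library left out no window passed, that of Mllt6 included, and its difference was then −3.6 to −3.1. Its exact permutation p was then 0.00735, the smallest that test can give with fewer ES libraries, so not passing does not show a weaker difference. With ranking by fold enrichment it was −2.47 and did not pass (exact permutation, adjusted p = 0.102).

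The other 3 windows did not pass. In the Grm4 window ES libraries had 0, 1 and 0 peaks, and the others between 1 and 5 with a median of 2. That difference was −2.13 (exact permutation p = 0.0221, adjusted p = 0.104), and it passed with flanks of 60 kb, at −2.07 (exact permutation, adjusted p = 0.0348). In the A430005L14Rik window each ES library had 2 peaks and the others between 1 and 4, and the means differed by −1.13 (exact permutation p = 0.0637, adjusted p = 0.207). The Col11a1 window was nearly empty in all, with means of 0.333 in ES and 0.0667 in the others (exact permutation p = 0.314, adjusted p = 0.553). With the parting regions counted, ES and the others had means closer to each other at Grm4, 1.33 and 3, and at A430005L14Rik, 2.67 and 3.53. At Col11a1 they were then further apart, 1.33 and 0.667. Those counts were not tested. At equal length the last peak kept had a −log10 p of 3.98 to 4.68 in ES lists and 5.18 to 9.61 in the others. The part of that gap in the result was not tested. ES is 1 culture, so these p-values measure the spread between libraries, which may be technical.

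FS2 stood apart from FS1 at equal length in the Grm4 window only. Without the parting region, FS2 libraries had 5, 4 and 5 peaks in the Grm4 window and FS1 libraries 3, 2 and 2. In the A430005L14Rik window the order was the other way, with 3, 1 and 2 in FS2 and 3, 4 and 3 in FS1. FS1 and FS2 did not overlap at Grm4. They met at 3 peaks in the A430005L14Rik window and at 5 in the Mllt6 window, and both were without a peak in the Col11a1 window. How many of all windows part FS1 from FS2 was not counted. With lists as deposited, where FS1 lists are the longer, FS1 had 10 to 15 peaks in the Grm4 window and FS2 6 to 10.

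**Figure D4:**
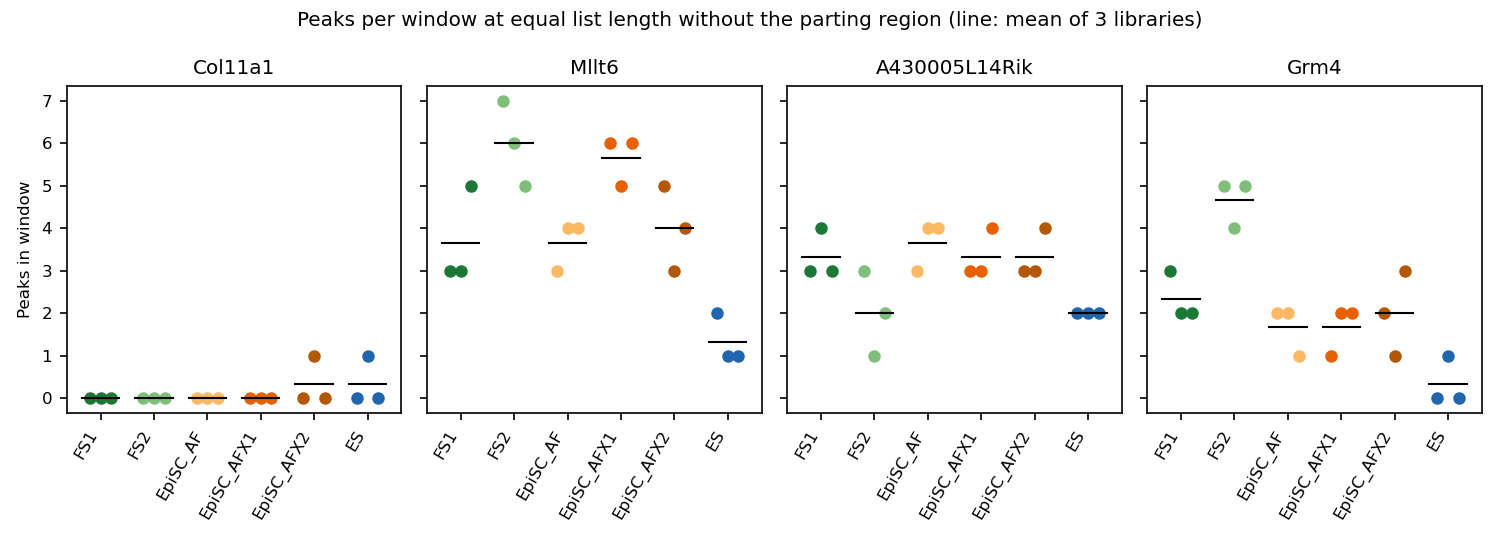
Points give the number of peaks in each window for the 18 first-set libraries at equal list length, without the parting region, and lines the mean of 3 libraries. In the Mllt6 window ES points lie at 1 to 2 and all others at 3 to 7.

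EpiLC and Rd2_AFX windows were compared at 7469 peaks a list. Over 18361 windows, EpiLC counts lay wholly above Rd2_AFX counts in 3.04% and wholly below in 5.8%, that is in 558 and 1065, and with lists as deposited the order turned, to 686 and 40. All 4 loci overlapped between the groups when all 6 libraries were used. Grm4 lay wholly on the Rd2_AFX side with EpiLC libraries 1.2 and 2.2 only and without EpiLC library 2.1, and A430005L14Rik did so without Rd2_AFX library 2. In the Mllt6 window EpiLC had 2 to 4 peaks and Rd2_AFX 3 to 4, and in the Grm4 window EpiLC had 1 to 4 and Rd2_AFX 3 to 4. In the Col11a1 window each of the 6 libraries had 1 peak, that at the promoter.

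Related genes were read from peaks within 1 kb of a gene end in full lists. Of 10 other fibrillar collagen genes, Col3a1, Col5a2 and Col11a2, the last encoding the partner chain of Col11a1, had no such peak in any list. Col5a1, a chain of type V collagen, had one in 6 of 6 EpiSC_AFX, 5 of 6 FS and 3 of 3 ES lists. Col1a2 had one in 6 of 6 EpiSC_AFX, 3 of 3 FS1, 0 of 3 FS2 and 0 of 3 ES lists. No collagen window was called between ES and the other libraries.

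Among the 7 other metabotropic glutamate receptors 2 windows had more peaks in ES, against the 3.16% of all windows. Grm8 had 3 peaks in ES and 0.133 in the others on average (exact permutation, adjusted p = 0.0237), and Grm3 had 1.67 and 0.133 (exact permutation, adjusted p = 0.0416). At its gene ends Grm8 had a peak in 11 of 12 full lists of FS and EpiSC_AFX and in 0 of 3 from ES, so its extra ES peaks lay elsewhere in the window. Grm2 and Grm3 each had a gene-end peak in 6 of 6 EpiSC_AFX, 3 of 3 FS1 and 0 of 3 FS2 lists.

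The 8 relatives and partners of Mllt6 varied from gene to gene. Dot1l, the histone H3 lysine methyltransferase, Mllt1, Mllt3 and Aff4 had a gene-end peak in 6 of 6 FS and 6 of 6 EpiSC_AFX full lists. Aff3 had none in any list, and Mllt10, the closest relative of Mllt6, had one in 2 of 26. Kmt2a, the fusion partner, had fewer window peaks in ES, 0.667 against 3.53 on average (exact permutation, adjusted p = 0.0237), and was the only one of the 8 called, against the 7.62% of all windows.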

How the data were processed

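Per the submitters' processing notes, reads were handled with Trim Galore, Bowtie, Picard and MACS2 in mm10, which is GRCm38; versions and settings are not given in the sources used here. The authors deposited 1 peak list for each of 26 libraries, called per sample. Each deposited fold enrichment is the authors' own ratio for that peak. Each peak's −log10 p and −log10 q are the authors' values and were used to rank or filter peaks within a list, and are given across lists only to describe the last peak kept at equal length. The deposited score repeats the −log10 q in another scale and was not used. The members and lists were chosen with earlier results of these data known.

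Gene spans and promoter sequences came from RefSeq GRCm38.p6 tables, with 21887 protein-coding gene windows. Peaks were merged where they overlapped or touched, and 1 bp of overlap counted as presence. At equal length each first-set list kept its peaks of highest −log10 p, as many as the shortest list has. Regions were named where they parted the types, were in most of the 26 lists, or were in every library of a first-set cell type and in none of another.

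Peaks per window were compared between 3 ES and 15 other libraries by a two-sided exact permutation of library labels over 816 assignments, with Benjamini-Hochberg adjustment over all windows with a peak and a threshold of 0.05. Windows overlap and are not independent. Nothing in the labels says that libraries of a culture were grown apart, and at most 0.0746% of peaks had identical coordinates between libraries of a group. The window test was tested on simulated counts, drawn independently for each library and window. Such counts hold no clustering by culture, so the error rate of the test in this design was not tested. Analyses ran in Python 3.11.15 with numpy 2.4.6 and pandas 2.3.3.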

Additional observations from a re-analysis of the deposited data

Results flagged for a closer look

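The number of peaks in the Col11a1 window at equal list length was 2 in EpiSC_AFX2 replicate 2, while each of the other 5 EpiSC_AFX libraries had 1. This library's distance from the others took up the whole range of the group. The extra peak lay in the region at 114142394-114142754, inside the Col11a1 span. In all, 24 groups of values were looked at and 1 stood out in this way. Counts this small are often equal, so 1 peak more in 1 library is enough to stand out, and chance alone can do this.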

How the results depend on the processing

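All 4 regions stayed parting with ranking by fold enrichment, with 50% overlap and under a −log10 q minimum of 5. Leaving out a library cannot end a parting region and is no check of it. With lists as deposited, Col11a1 and A430005L14Rik stayed so. FS minus EpiSC_AFX libraries with a peak then fell to −3 at Mllt6 and to 1 at Grm4, and FS held 15 and EpiSC_AFX 45 regions alone. With −log10 q of at least 5, FS held 3 and EpiSC_AFX 8 alone. Leaving out a library gave 24 to 37 regions for FS, the most without FS1 or FS2 replicate 3, and 12 to 18 for EpiSC_AFX, the most without EpiSC_AFX1 replicate 2.

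Counts of gene windows with fewer and more peaks in ES were 11122 and 159 with lists as deposited, 635 and 364 by fold enrichment, 2376 and 8 with −log10 q of at least 5, and 396 and 260 with flanks of 60 kb. Leaving out 1 library gave 0 to 1770 and 0 to 682 in the exact permutation test; both were 0 without ES replicate 1, 2 or 3, where the smallest adjusted p over all windows was 0.0784, 0.0884 and 0.0941, with 4302, 4059 and 3950 windows at an unadjusted p under 0.05. With an ES library left out the exact permutation p cannot go below 0.00735, so these 0 counts cannot show that differences were weaker. The Mllt6 difference was −3.6 to −3.1 without 1 library and −2.47 by fold enrichment. With lists as deposited, the A430005L14Rik difference passed at −4.27 and the Grm4 difference at −6.33, and Grm4 passed at −2.07 with 60 kb flanks. The A430005L14Rik difference was −1.29 to −1.07 without 1 library and passed without FS2 replicate 2.

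Labels only number the libraries. Same-numbered libraries did not deviate together (highest r over 45 pairs 0.0316), so the numbers were not taken as pairs. With a replicate block the counts were 0 and 0, with 5268 windows at an unadjusted p under 0.05, and the Mllt6 difference of −3.27 had an exact permutation adjusted p of 0.0623. Its unadjusted exact permutation p was 0.00463, the smallest the block allows.

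Windows with more peaks in EpiLC and in Rd2_AFX, 558 and 1065, became 1487 and 2177 with EpiLC libraries 1.1 and 2.1 only, 1382 and 2332 with 1.2 and 2.2 only, 781 to 1401 and 1327 to 2761 without 1 library (852 for EpiLC without Rd2_EpiLC 2.2, 1264 and 2658 without Rd2_AFX replicate 1, and 1401 and 2761 without Rd2_AFX replicate 2), and 686 and 40 with lists as deposited. Depth is unknown and limits what an absent peak shows.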
